A study of Homo sapiens with 4 samples.

Results

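The genes described are 7 myeloid tumor suppressor candidates on the long arm of chromosome 7 (7q): CUX1, KMT2E, DOCK4, EZH2, KMT2C, SAMD9 and SAMD9L. They were taken as 6 hg19 windows, each a gene body with 50 kb on each side, and SAMD9 and SAMD9L, which lie next to each other, shared 1 window. The windows follow gene positions and not peak values, although the genes were picked with earlier results of these data known. Of the 250000 H3K9me2 peaks deposited for each library, these windows overlapped 270 (control 1), 262 (control 2), 201 (knockout 1) and 231 (knockout 2). The assay was CUT&RUN, where an antibody-guided nuclease releases DNA from nucleosomes that carry the mark, and the cells were K562, a human leukemia line of myeloid origin. The 2 control libraries came from K562 cells given a CRISPR guide against HPRT, and the 2 knockout libraries from K562 cells given a CRISPR guide against CUX1. The labels do not say whether the edited cells were a clone or a pool or whether replicates were separate cultures, so p-values reflect library-to-library spread, which may be technical. The names of the peaks in both knockout libraries carry the tag cux1kd, and "knockout" follows the sample labels. Those of control replicate 1 carry the tag sub54, which no source used here explains, so whether its reads were subsampled is unknown; this touches every comparison of coverage below.

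Loss of 7q or of the whole chromosome recurs in myelodysplastic syndromes and acute myeloid leukemia, and several genes of the arm are thought to act together when a copy is lost. CUX1 encodes a transcription factor with Cut repeats and a homeodomain, also known as CCAAT displacement protein, which can recruit the H3K9 methyltransferase G9a (EHMT2). H3K9me2 is laid down mainly by G9a and its partner GLP and covers broad, mostly silent stretches of chromatin.

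The lists set limits on every value below. No peak in any of the 6 windows reached a q of 0.05 in any library; the strongest, beside KMT2E in control replicate 2, had a −log10 q of 1.26. The sources used here do not give read depth. Knockout replicate 1 stood apart, with peaks over 18.4% of 7q against 26.8% in knockout replicate 2 and 36.0% and 35.6% in controls 1 and 2, and its list ended at a higher −log10 p (1.49) than the others (1.25 to 1.35). Since a mark at a gene does not show whether that gene was cut, CUX1 coverage is no check of the knockout label.

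The first question was whether the windows around these genes carried less H3K9me2 in CUX1 knockout cells, the change named in the title of the series. Knockout means were lower at all 6 windows in the whole lists, and both knockout libraries lay below both controls at 5 of the 6, the exception being EZH2. That pattern is common: it held in 84.4% of 200-kb windows on the rest of 7q and in 49.7% of all 13859 rows of the table tested. In that table, made of the 6 windows and the 200-kb windows of the genome, limma with Benjamini-Hochberg adjustment called 0 of the 6 windows at an adjusted p under 0.05, where 2.03% of all rows, and 4.76% of those on the rest of 7q, were called lower and 0.0649% of all rows higher. At an unadjusted p under 0.05, 2 of the 6 (CUX1 and KMT2E) were lower, against 17.8% of all rows. That share was not counted for the rest of 7q, which ran lower than the genome by the other counts. The median difference was -11.6 percentage points over the 6 windows, -13.5 over 200-kb windows on the rest of 7q and -6.10 over all rows.

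The direction changed with some ways of cutting the lists and not with others. With the 50% of each list of highest −log10 p, the knockout mean was lower at all 6 windows (median difference -4.04 points). With all lists cut to the covered length of knockout 1, the shortest, it was lower at 5 of the 6 (median -1.91). SAMD9/SAMD9L was the exception there, at 2.57. With 1 limit of −log10 p for all lists, at 1.49, the knockout mean was higher at 5 of the 6 windows, and KMT2E, with a difference of -3.55 points, was the exception. That limit is where the list of knockout 1 ended, so it took no peaks from knockout 1 and cut only the other lists. At CUX1, coverage stayed at 13.0% in knockout 1 and went from 31.8% to 14.6% in control 1. A rise of the knockout mean relative to the controls is thus partly built into this setting. The change of sign was not particular to these genes. With that limit the median difference was 3.08 points over the 6 windows and 3.32 over all 13415 rows tested. Without knockout replicate 2, limma called 5 of the 6 windows lower (all but KMT2C), when 28.6% of all rows were also called lower. That fit compares knockout 1 alone, the list that stood apart, with the controls; only the controls then give a spread, and the lone library is assumed to vary as they do.

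**Figure D1:**
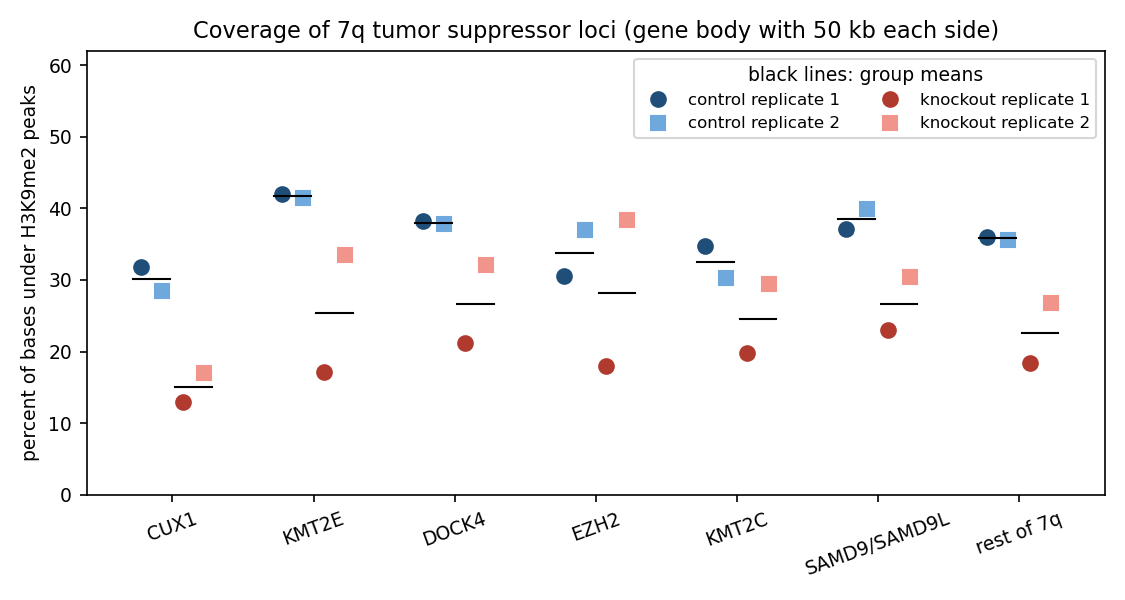
Percent of bases under H3K9me2 peaks (vertical axis) in each of the 4 libraries for the 6 windows and for 7q without them; circles are replicate 1, squares replicate 2, blue control, red knockout, and black lines group means (n = 2). Knockout points lie below both controls everywhere but at EZH2, where knockout replicate 2 reaches 38.4%, and CUX1 has the lowest knockout mean, 14.998%.

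By the means of both groups, CUX1 had the least H3K9me2 peak coverage of the 6 windows, although EZH2 was lower in control 1 (30.6%). Peaks covered 31.8% and 28.4% of its window (chromosome 7, 101409184 to 101977250) in controls 1 and 2, and 13.0% and 17.01% in knockouts 1 and 2. Both knockout libraries lay well below both controls, so the groups did not overlap. The means were 30.1% ± 2.41 and 14.998% ± 2.85 (SD, n = 2 each), a difference of -15.1 points (SE 6.31) with a limma adjusted p of 0.192; a two-sided exact permutation test gave 0.333, its smallest possible p with 2 libraries a group. Without knockout replicate 2 the difference was -17.1 points (limma adjusted p = 0.0340), with knockout 1, the sparser list, as the only knockout library, and over all settings run the adjusted p lay between 0.0340 and 0.980.

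Against its own arm, CUX1 was also the only one of the 6 windows where both knockouts lay below both controls. How many other 7q windows had this order relative to the arm was not counted, so it does not set CUX1 apart. The log2 of its coverage over that of the rest of 7q in the same library was -0.18 and -0.33 in controls 1 and 2 and -0.51 and -0.65 in knockouts 1 and 2, a difference of -0.33 (exact permutation p = 0.333, the smallest possible). At the other 5 that difference ran from -0.11 (KMT2E) to 0.33 (EZH2). Its knockout-to-control ratio of 0.498 was not extreme on the arm: 18 of 158 other 7q windows of the same length (11.4%) had a lower ratio, and their median was 0.634. The window was sparse in every library, with 28 and 18 of the 158 windows below it in controls 1 and 2 and 20 and 17 in knockouts 1 and 2. Averaged over the 6 windows, the log2 value relative to 7q was -0.02 and -0.01 in controls 1 and 2 and -0.00 and 0.13 in knockouts 1 and 2, a difference of 0.07 (exact permutation p = 0.333), so both knockouts lay slightly above both controls.

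The 3 windows of 200 kb on 7q most like CUX1, out of 468, were those starting at 73600001, 67200001 and 97600001, by Euclidean distance in percent covered over the 4 libraries (2.71, 2.72 and 3.56 points). The first was covered to 32.1% and 26.2% in controls 1 and 2 and to 12.0% and 15.9% in knockouts 1 and 2.

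Each gene body was split into 5 equal parts in the direction of transcription. At CUX1 the groups were apart in parts 2 to 5 and in both flanks, though only barely upstream, and overlapped in part 1. Peaks covered 27.6% and 24.5% of part 2 in controls 1 and 2, against 13.6% and 9.30% in knockouts 1 and 2. In part 4 the values were 28.4% and 38.9% against 15.4% and 8.47%, and in part 5 32.3% and 17.8% against 9.94% and 8.98%. The 50 kb upstream held 26.6% and 34.3% in controls 1 and 2 against 7.78% and 26.5% in knockouts 1 and 2. Of the body parts and flanks, only part 1 had overlapping groups, with 45.6% and 19.4% in controls and 17.5% and 31.6% in knockouts. Within 5 kb each side of the start they overlapped too. There controls 1 and 2 had 62.95% and 53.45%, and knockouts 1 and 2 had 2.38% and 72.81%. Of the 6 windows of 100 kb over CUX1, the one from 101700001 to 101800000 had both the highest mean and the smallest p: 38.5% and 39.3% in controls 1 and 2 against 16.98% and 22.1% in knockouts 1 and 2 (limma adjusted p = 0.234).

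**Figure D2:**
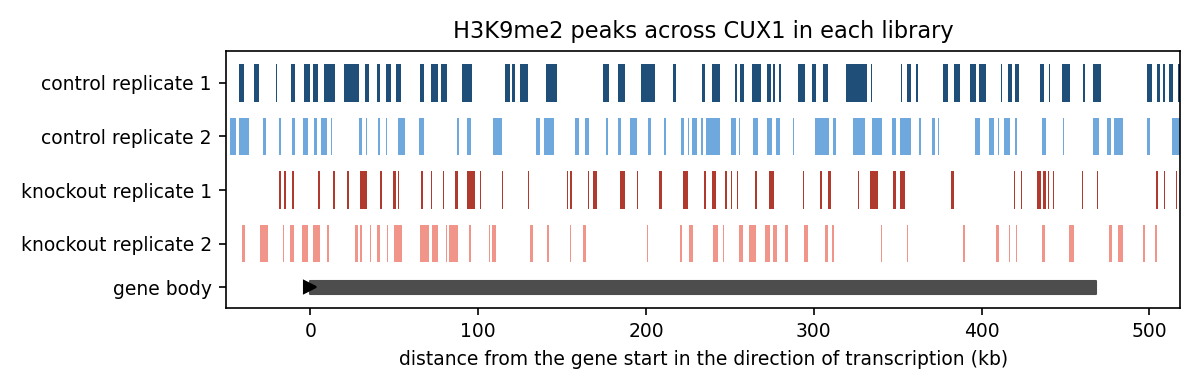
H3K9me2 peaks (coloured blocks) in each library along CUX1, by distance in kb from the gene start in the direction of transcription, with the gene body as a grey bar. Blocks are wider in the controls, with median widths of 2720 and 2174.5 bp against 1109 and 1496.5 bp, and none crosses the gene start at 0.

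Narrower rather than fewer listed peaks made up most of the difference at CUX1. The window held 57 and 60 peaks in controls 1 and 2 and 55 and 52 in knockouts 1 and 2. Median widths were 2720 bp (control 1), 2174.5 bp (control 2), 1109 bp (knockout 1) and 1496.5 bp (knockout 2), while on the rest of 7q they were 2411 and 2500 bp against 1491 and 2119 bp. The caller's smallest width also differed, at 362 and 369 bp for controls 1 and 2 against 263 and 339 bp for knockouts 1 and 2, and its part in these widths was not tested. Both controls and neither knockout covered 6.26% of the CUX1 window, both knockouts and neither control 0.624%, and all 4 libraries 1.33%. On the rest of 7q these shares were 7.19%, 1.59% and 2.20%. The longest stretch under peaks in all 4 libraries was 1980 bp, from 101698935 to 101700914 in the gene body. The strongest peak by −log10 q lay at nearly the same place in control 2 and knockout 1, from 101448444 to 101449737 and from 101448239 to 101449558, about 10 kb before the start; in control 1 and knockout 2 it lay in part 1 of the body.

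Peaks were also read at the gene starts themselves. From 250 bases before to 50 after the start, the CUX1 start was under a peak in 0 of 4 libraries, and the nearest peak of any library ended 293 bp upstream and began 1299 bp downstream. The 300 bases at EZH2 were at least partly covered in all 4 libraries (100%, 100%, 100% and 53.3% of the 300 bases, in the order of controls 1 and 2 and knockouts 1 and 2), although in knockout 2 the peak ended 90 bp before the start itself. The KMT2E and DOCK4 starts were wholly covered in 3 of 4 libraries and uncovered in knockout replicate 1. The start on the SAMD9L side of its window was covered in control 1 and knockout 1 and uncovered in the other two libraries. The KMT2C start was uncovered in all 4, though peaks lay close by. They ended 296 and 402 bp upstream in controls 1 and 2 and 368 bp upstream in knockout 2. In knockout 1 a peak began 212 bp downstream.

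Promoters of CUX1, EZH2 and SAMD9L are shown as the contrast between a start uncovered in all 4 libraries, a promoter covered wholly or in part in all 4, and a promoter without CpG. They are the 250 bases before the start from RefSeq (GRCh38.p14), read 5′ to 3′ on the gene's strand, and for CUX1 and EZH2 the first of the 2 promoters listed. They come from chr7:101815757-101816056 (CUX1, plus strand), chr7:148884242-148884541 (EZH2, minus strand) and chr7:93148336-93148635 (SAMD9L, minus strand), intervals that end 50 bases past the start. Capitals mark CCAAT, the box that CUX1 is named for, or ATTGG, the same box on the opposite strand; only EZH2 has it in these bases.
CUX1: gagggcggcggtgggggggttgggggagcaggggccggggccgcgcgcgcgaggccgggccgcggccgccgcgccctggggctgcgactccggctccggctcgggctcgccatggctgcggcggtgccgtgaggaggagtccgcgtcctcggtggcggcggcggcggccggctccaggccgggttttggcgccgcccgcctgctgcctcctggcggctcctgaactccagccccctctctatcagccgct
EZH2: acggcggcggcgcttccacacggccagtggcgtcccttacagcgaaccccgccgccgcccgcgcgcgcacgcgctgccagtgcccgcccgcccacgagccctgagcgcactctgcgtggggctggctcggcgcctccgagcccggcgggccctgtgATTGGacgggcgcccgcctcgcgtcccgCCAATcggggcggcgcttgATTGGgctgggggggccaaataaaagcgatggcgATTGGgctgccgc
SAMD9L: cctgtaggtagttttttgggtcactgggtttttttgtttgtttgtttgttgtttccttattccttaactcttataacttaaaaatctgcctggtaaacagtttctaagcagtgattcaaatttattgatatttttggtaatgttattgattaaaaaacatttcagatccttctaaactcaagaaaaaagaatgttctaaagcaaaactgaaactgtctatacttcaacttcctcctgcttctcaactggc

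Of the starts read, 1 per window, only those of KMT2C and CUX1 were uncovered in all 4 libraries, and the SAMD9 start was not read. KMT2C and CUX1 had the highest shares of G or C by the first promoter listed. The share of EZH2 was close to that of CUX1. The second promoter of EZH2 (77.0%) lay above the first of CUX1 and below the second of CUX1 (78.3%). Peaks were not read at these second promoters, and a link between G or C and peaks was not tested. The 300 bases of the first RefSeq promoter, 250 before and 50 after the start, held 56 CpG at KMT2C (88.7% G or C) and 39 at CUX1 (75.3%). EZH2 held 46 (74.7%), KMT2E 35 (69.0%), DOCK4 31 (64.0%), SAMD9 4 (39.7%) and SAMD9L 0 (34.3%). The median over 35116 promoters was 14 (58.7%). EZH2 held 4 CCAAT matches, SAMD9, DOCK4 and CUX1 1 each, and SAMD9L, KMT2E and KMT2C none; 34.6% of all promoters hold at least 1 on either strand. The last 30 of the 300 bases at CUX1 held its CCAAT match, at position 32 counted from 1 at the start, and at position 42 the hexamer ATCGAT, a preferred site of shorter CUX1 isoforms (both in capitals): caagatggcggCCAATgtgggATCGATgtt. ATCGAT, which reads the same on both strands, was in 0.763% of all promoters and in that of no other member. These matches describe letters only, and the hg19 starts used for coverage need not be the RefSeq starts to the base.

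EZH2, KMT2C and KMT2E belong to families that act on histones. EZH2, the catalytic subunit of Polycomb repressive complex 2 that methylates H3K27, had the smallest difference of the 6 windows. Its window (148454464 to 148631441) was covered to 30.6% and 37.0% in controls 1 and 2 and to 18.0% and 38.4% in knockouts 1 and 2. Knockout 1 was below and knockout 2 above both controls, so the groups overlapped. The means were 33.8% ± 4.54 and 28.2% ± 14.4 (SD, n = 2 each), differing by -5.58 points with an SE of 7.05 (limma adjusted p = 0.644). In parts 2 to 4 of the body the 2 knockouts lay on opposite sides of both controls, with 0.0390% and 59.4% in part 2 against 28.2% and 56.7% for controls. In part 1, at the gene start, both knockouts (30.8% and 34.4%) lay above both controls (29.1% and 15.9%). Without knockout replicate 1 the difference was 4.61 points, so its sign rested on that library.

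KMT2C (MLL3), which places monomethyl marks on H3K4 at enhancers, was covered over 34.8% and 30.2% of its window (151782010 to 152183090) in controls 1 and 2 and over 19.8% and 29.4% in knockouts 1 and 2. The second knockout lay just under the lower control. The means were 32.5% ± 3.22 and 24.6% ± 6.83 (SD, n = 2 each), differing by -7.91 points with an SE of 6.63 (limma adjusted p = 0.488).

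Nearly all of the first 60 kb of KMT2C was empty in every library. No peak lay between 152072555 and 152132573, a stretch of 60019 bp inside the gene body that begins close to the gene start. Coverage of part 1 of the body was 0% in 3 libraries and 0.507% in knockout 1, while part 2 had 50.6% and 51.2% in controls 1 and 2 and 22.6% and 40.2% in knockouts 1 and 2. Of 14607 stretches of 7q that no library's peaks touched, with a median of 1534 bp, 21 including this one were as long. The longest peak-free stretch at the other 5 windows was 11583 bp, downstream of CUX1. Without this stretch, a choice made after its values were seen, the rest of the KMT2C window was covered to 40.9% and 35.5% in controls and 23.2% and 34.6% in knockouts. Parts of KMT2C are known to have near-identical copies elsewhere in the genome, and the sources used here do not say how reads that match several places were treated, so peaks over this gene are uncertain.

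**Figure D3:**
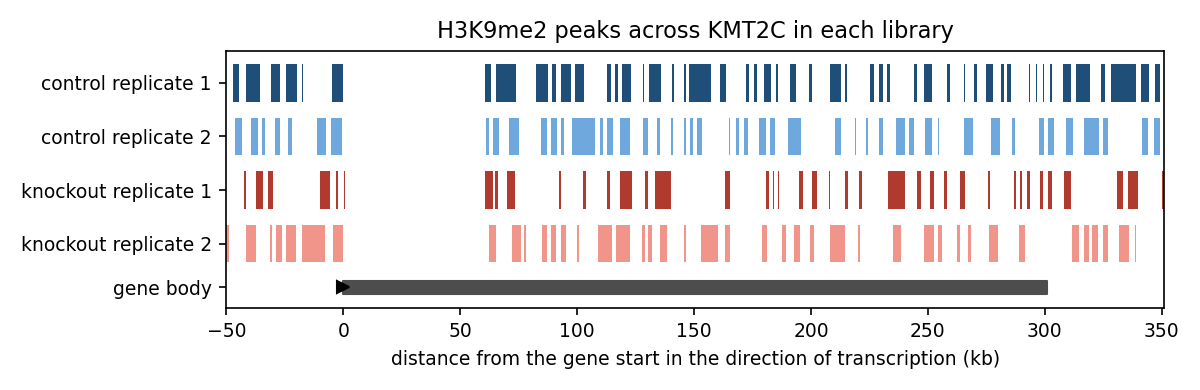
H3K9me2 peaks (coloured blocks) in each library along KMT2C, by distance in kb from the gene start in the direction of transcription, with the gene body as a grey bar. All 4 libraries are blank over nearly all of the first 60 kb of the body and have peaks on both sides of it.

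KMT2E (MLL5), a SET and PHD domain protein needed for normal blood stem cell function, was the most covered window in the controls and showed the largest difference in points. Peaks covered 42.0% and 41.5% of its window (104604637 to 104804532) in controls 1 and 2 and 17.1% and 33.5% in knockouts 1 and 2. Both knockouts were below both controls but differed from each other about as much as their mean differed from the controls. The means were 41.8% ± 0.384 and 25.3% ± 11.6 (SD, n = 2 each), differing by -16.4 points with an SE of 7.75 (limma adjusted p = 0.241). The difference was -8.26 points without knockout 1 and -24.6 without knockout 2.

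The gene body of KMT2E, without flanks, was the only locus difference that passed in any setting with all 4 libraries. It was covered to 35.5% and 40.03% in controls 1 and 2 and to 12.6% and 19.9% in knockouts 1 and 2, differing by -21.5 points with an SE of 6.49 (limma adjusted p = 0.0454), where 2.04% of all rows were called lower. Part 5 of the body held 22.3% and 33.1% in controls 1 and 2 against 2.04% and 0% in knockouts 1 and 2. Just past the gene end the libraries separated differently, with 14.97% in knockout 1 and 59.8% in knockout 2 on either side of the controls (37.7% and 39.4%). The strongest peaks by −log10 q of all 6 windows were here, before the gene start, in control 2 (104624128 to 104627387, −log10 q 1.26, fold 2.21) and knockout 2 (104623595 to 104625504, 1.23, fold 2.49), folds and q being the authors' values. These peaks overlap each other, and the strongest peaks of replicate 1 of either group lay elsewhere, inside the gene body.

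DOCK4, a guanine nucleotide exchange factor for Rac and Rap GTPases with low expression reported in myelodysplastic syndromes, had 4 of 5 body parts in which both knockouts lay below both controls. Peaks covered 38.2% and 37.8% of its window (111316164 to 111896462) in controls 1 and 2 and 21.1% and 32.1% in knockouts 1 and 2. The groups did not overlap, and the difference of the means, 38.0% ± 0.291 and 26.6% ± 7.75 (SD, n = 2 each), was -11.4 points (SE 7.38, limma adjusted p = 0.377). Control means stayed between 35.8% and 39.7% over the 5 parts of the body, although control 1 had its lowest value (31.6%) and control 2 its highest (44.7%) in part 1. Knockout means ran from 21.8% in part 1 to 34.1% in part 3. Part 3, with 42.2% and 29.4% in controls 1 and 2 and 29.6% and 38.6% in knockouts 1 and 2, was the only one of the 5 where the groups overlapped. DOCK4 also held the most stretches under peaks in all 4 libraries, 18, making up 2.58% of its window, while the highest such share was at EZH2, 2.83%. That share was 2.20% on the rest of 7q.

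SAMD9 and SAMD9L are neighbouring paralogs, induced by interferon, that restrain cell growth; activating germline variants of either are known to precede loss of chromosome 7. Their window (92678826 to 92827682) was covered to 37.1% and 39.96% in controls 1 and 2 and to 22.99% and 30.4% in knockouts 1 and 2. The groups did not overlap, with means of 38.5% ± 2.05 and 26.7% ± 5.23 (SD, n = 2 each) and differing by -11.8 points with an SE of 7.47 (limma adjusted p = 0.366). The genes themselves carried little of it: between 92728826 and 92777682, which holds both genes, coverage was 31.3% and 36.2% in controls and 32.0% and 32.2% in knockouts, a difference of -1.65 points (limma adjusted p = 0.906). Both knockouts lay below both controls in 0 of the 5 parts of this stretch. On the 50 kb upstream, past SAMD9L, coverage was 48.9% and 35.0% in controls 1 and 2 against 26.8% and 25.5% in knockouts 1 and 2. Downstream it was 30.9% and 48.6% against 10.4% and 33.5%, and the groups overlapped. Knockout means were thus lower in the flanks, but only upstream were the groups apart. With flanks of 100 kb, knockout 2 (37.7%) lay above both controls (37.3% and 36.3%).

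**Figure D4:**
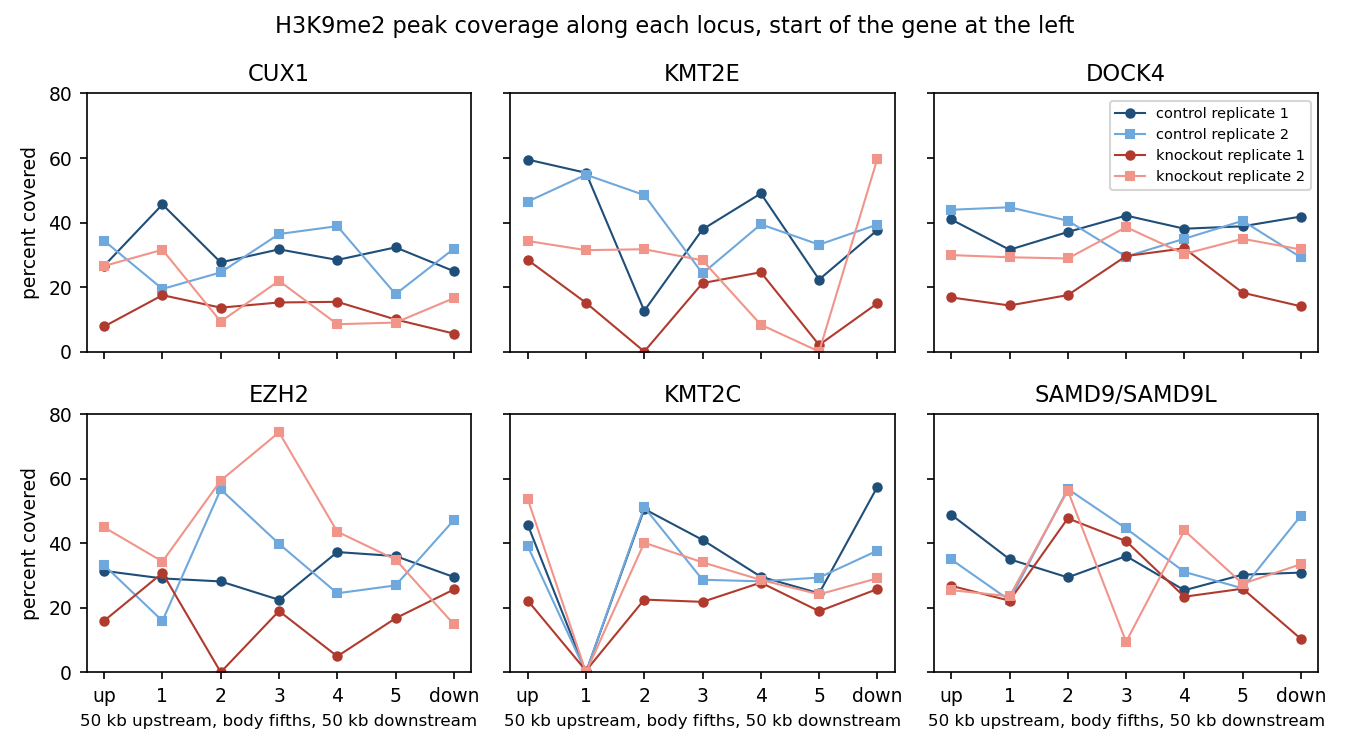
Percent of bases under H3K9me2 peaks (vertical axis) in the 50 kb upstream, 5 equal parts of the gene body in the direction of transcription and the 50 kb downstream of each gene, 1 line per library (blue control, red knockout, circles replicate 1, squares replicate 2). KMT2C drops to 0.507% or less in part 1 in all libraries, and lines of the 2 groups cross somewhere in every panel.

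By control mean the order was KMT2E (41.8%), SAMD9/SAMD9L (38.5%), DOCK4 (38.0%), EZH2 (33.8%), KMT2C (32.5%) and CUX1 (30.1%). Neighbours from SAMD9/SAMD9L to DOCK4 and from EZH2 to CUX1 overlapped between libraries, and KMT2E lay above SAMD9/SAMD9L in both controls. By knockout mean EZH2 led at 28.2% and CUX1 was last at 14.998%, and CUX1 was below the other 5 in each knockout library.

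Set among 7q windows of their own lengths, the members spread over the range of the arm. The knockout-to-control ratio was 0.835 at EZH2 and 0.757 at KMT2C, where 95.6% of 523 and 91.6% of 227 windows were lower. It was 0.7004 at DOCK4 (80.8% of 156 lower), 0.693 at SAMD9/SAMD9L (68.3% of 622) and 0.606 at KMT2E (39.4% of 465). CUX1 and KMT2E thus lay below the medians of such windows, which ran from 0.630 to 0.638, and the other 4 above. Medians, ratios and ranks are descriptions, and no test was made of a difference between members.

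**Figure D5:**
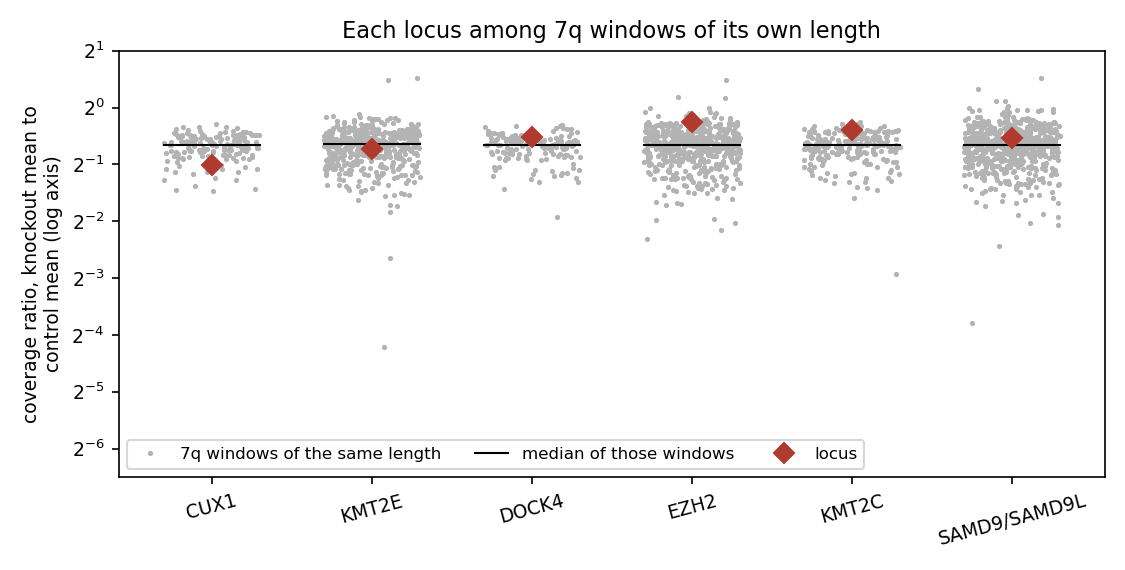
Ratio of mean coverage in knockouts to that in controls (log axis) for each locus (red diamond) and for 7q windows of the same length that touch no locus (grey points, black line their median). CUX1 at 0.498 lies below its median of 0.634, and EZH2 at 0.835 is above most of its windows.

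At the scale of 100 kb, limma called 0 of the 26 windows over the 6 loci, where 0.0981% of 27532 windows, and 0.431% of those on the rest of 7q, were called lower and 0 higher. Without knockout replicate 2 it called 4 of the 26, where 8.3% of all windows were called lower. At an unadjusted p under 0.05, 7 of the 26 were lower, against 14.3% of all windows: 4 over CUX1 and 1 each over KMT2E, DOCK4 and EZH2. The share at this unadjusted p was not counted for the rest of 7q. Both knockouts lay below both controls in 16 of the 26, where 73.8% of 100-kb windows on the rest of 7q and 43.3% of all windows did so. Within each other locus the window of smallest p was as follows. At KMT2E it started at 104600001, with 46.3% and 47.6% in controls and 18.3% and 33.8% in knockouts (limma adjusted p = 0.271). At DOCK4 it was the window starting at 111800001, which holds the gene start, with means of 40.4% and 21.1%, and at EZH2 that starting at 148400001, downstream of the gene, with 39.7% and 20.5% (limma adjusted p = 0.242 and 0.241). KMT2C and SAMD9/SAMD9L had theirs at 152000001 and 92600001 (limma adjusted p = 0.465 and 0.405). The windows of highest mean were the same ones at CUX1, KMT2E and SAMD9/SAMD9L, and those starting at 111400001, 148600001 and 151700001 at DOCK4, EZH2 and KMT2C (limma adjusted p = 0.714, 0.612 and 0.594).

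Libraries shared bases inside the 6 windows about as they did on the rest of 7q. The Jaccard index, bases shared over bases covered in either library, was 0.302 for the control pair, 0.1499 for the knockout pair, and from 0.164 to 0.265 across groups. On the rest of 7q the same values were 0.288, 0.173, and 0.183 to 0.253. The index rises with the length that 2 lists cover, and coverage was lowest in the knockouts, so the order of the pairs is given as a description only. The knockout pair had its lowest index, 0.0997, at CUX1, where its coverage was also lowest, and the control pair its highest, 0.373, at KMT2E, where its coverage was highest.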

How the data were processed

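H3K9me2 CUT&RUN libraries of 4 K562 samples were used, grouped by title. Reads were processed on hg19 with MACS2 2.1.0, BWA 0.7.17, deepTools 3.5.1 and SAMtools 1.16.1, per the submitters' processing notes. The sources used here give neither settings nor depth. No peak in 23 chromosomes passed an hg19 end. For each library the authors deposited a broad-peak list, whose columns used here are a score, a fold ratio over background and −log10 values of p and q. These were used only to rank, filter or describe peaks.

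Percent of bases under at least 1 peak was computed for each window (Python 3.11.15) and compared between groups in R 4.3.3 by limma 3.58.1 (trended eBayes, Benjamini-Hochberg adjusted p under 0.05) in rows with a mean of at least 1%. In simulated data, reductions of 10, 20 and 30 points were recovered in 14%, 68% and 100% of cases in the locus table. In 100-kb windows these shares were 0%, 38% and 94%. The reductions were placed in rows covered over 30%, with 8 and 4 false calls, respectively. Simulated spread followed coverage alone, without the further row-to-row variation or the lower knockout coverage of the real lists. 7q was chromosome 7 past its longest peak-free stretch, from 62121161. Alternatives covered scaling, replicate block, left-out libraries, peak limits, gaps, filters, flanks and window sizes. Named windows were, per locus, those of 100 kb with the highest mean and the smallest p; named peaks had the highest −log10 q. The members, lists and tests were chosen with earlier results of these data known. RefSeq tables (GRCh38.p14) gave strands and promoters for 7 of 7 genes; hg19 positions were used for these genes alone, and 2 further gene lists were not analysed here.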

Additional observations from a re-analysis of the deposited data

How the results depend on the processing

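With all 4 libraries, 0 of the 6 loci passed with 50-kb flanks, and 1 (KMT2E, -21.5 points) with gene bodies alone. Leaving out 1 library gave 0 to 5 loci and 0 to 4 of the 100-kb windows over them, the highest without knockout replicate 2, where knockout 1 is the only knockout library and is assumed to vary like the controls. The leave-one-out differences ran from -15.5 to -8.13 points at SAMD9/SAMD9L, -17.1 to -13.1 at CUX1, -24.6 to -8.26 at KMT2E, -16.9 to -5.90 at DOCK4, -15.8 to 4.61 at EZH2 and -12.7 to -3.07 at KMT2C. With 1 limit of −log10 p the differences were positive at SAMD9/SAMD9L (10.95), CUX1 (0.676), DOCK4 (1.91), EZH2 (7.39) and KMT2C (4.25), and with 1 limit of −log10 q likewise (12.2, 0.858, 5.68, 10.6 and 7.66). The −log10 p limit was the end of the knockout 1 list, which lost no peaks to it. Over all rows of the locus table the median differences with these limits were also positive, 3.32 and 3.91. At equal covered length only SAMD9/SAMD9L was positive (2.57), after quantile normalization EZH2 (2.99) and KMT2C (1.49), and over the body alone EZH2 (0.127). With the 50% of each list of highest −log10 p, all 6 differences were negative. The causes were not tested. KMT2E was lower in all 17 alternatives, CUX1 and DOCK4 in 15 of 17, and KMT2C in 15 of 18. SAMD9/SAMD9L was lower in 14 and EZH2 in 12 of 17. The replicate block, other background window sizes and no filter change only the fit. They return the main difference, so its sign could not change there. The mean relative to the rest of 7q stayed positive in every alternative (0.01 to 0.42). Libraries of 1 group shared 0.00982 more by Jaccard index than libraries of different groups, and counted as peaks that touch a peak of the other library (1 bp), the difference was -0.0209.

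Same-numbered libraries were not shown to be paired (r = 0.0892 between deviations over 13859 rows). With a replicate block 0 loci passed, and the CUX1 adjusted p (limma) was 0.120. Over the whole locus table the block called 462 rows lower against 282, and in 100-kb windows 168 against 27. The locus table had 78 lower calls without knockout 1 and 3966 without knockout 2, and 0 with quantile normalization, the p, q, equal-length and half-list limits, or no filter, and 27 of 27512 with 100-kb background windows. The 100-kb windows had 254, 571, 9 and 2284 lower calls with control 1, control 2, knockout 1 or knockout 2 left out, 17 with gaps filled, and 0 on the log2 scale, with no filter, with quantile normalization or with any limit; windows of 1 Mb gave 115 and of 50 kb 0.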

Other observations

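The serial numbers in the peak names run past the listed peaks and may number every peak called, although no source used here says so. Read this way, a measure chosen after the lists were seen, CUX1 was the only one of the 6 windows with fewer numbered peaks per Mb in both knockouts than in both controls: 158 and 162 in controls 1 and 2 against 136 and 144 in knockouts 1 and 2. The means were 160 ± 2.49 and 140 ± 6.22 (SD, n = 2 each), with an exact permutation p of 0.333, the smallest possible. How many other 7q windows had this order was not counted. DOCK4 had 174 ± 4.87 against 202 ± 20.7 and KMT2E 163 ± 17.7 against 188 ± 10.6, with both knockouts above both controls. The means were 175 against 191 at SAMD9/SAMD9L, 178 against 178 at EZH2 and 151 against 156 at KMT2C, with overlapping groups, and 159 against 174 on the rest of 7q. At KMT2E the deposited list held 28 of 30 numbered peaks in control 1 and 15 of 36 in knockout 1. At CUX1 the listed share was alike in all libraries, between 63.3% and 71.4%.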
